A study of Homo sapiens with 4 samples.

Results

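To describe where V5-tagged BRG1 sits at promoters rich in CpG dinucleotides, CUT&RUN peaks were selected by position in the peak lists of both constructs. A peak was taken when it touched the 1000 bp on either side of a protein-coding transcript start whose own surroundings, 500 bp to each side, had at least 55% GC and a CpG observed/expected ratio of at least 0.6. The ratio compares the number of CpG dinucleotides with the number that the C and G content would give. By this rule 3910 of 49583 peaks (7.89%) were CpG-rich promoter peaks. They were 1756 of 24212 peaks (7.25%) in the iBRG1 list and 2154 of 25371 peaks (8.49%) in the i∆HSA list. No peak value entered the rule.

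The cells were SW-13, a human adrenocortical carcinoma line that lacks both SWI/SNF ATPases, BRG1 and BRM. Doxycycline for 24 h induced either wild-type BRG1 (iBRG1) or BRG1 from which the helicase/SANT-associated (HSA) domain had been removed (i∆HSA), each with a V5 tag that the antibody recognised. There were 2 biological replicates per construct and 300000 cells per sample, all from clonal lines carrying an integrated inducible vector, so that clone and construct cannot be told apart. The deposited data hold 1 peak list per construct, which leaves every value below without a replicate error, and vehicle-treated cells were not analysed here.

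CpG-rich promoters, often called CpG islands, are stretches of DNA that mostly stay free of DNA methylation. They start transcription of housekeeping genes and of many developmental regulators, usually without a TATA box, and many of them fire in both directions. SWI/SNF complexes use ATP to slide or evict nucleosomes, and the HSA domain of BRG1 is the platform on which actin-related subunits assemble.

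The sequences below lie directly upstream of starts whose promoters carried peaks in both lists and which were among the highest-scoring CpG-rich promoter peaks of either list. They were chosen for holding promoter letters that recur in the results, above all CCAAT boxes. These sequences therefore do not show how often such boxes occur. Each was read from the reference genome (hg19), outside any annotated exon, and is written 5′ to 3′ on the strand of its gene, with matches to 12 searched motifs in capitals.
ALKBH7 (chr19:6372605-6372804, plus strand): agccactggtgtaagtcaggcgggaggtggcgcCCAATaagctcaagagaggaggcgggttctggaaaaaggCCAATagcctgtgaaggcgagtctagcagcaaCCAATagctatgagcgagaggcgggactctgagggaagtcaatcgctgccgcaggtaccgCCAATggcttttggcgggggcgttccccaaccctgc
MRPS12 (chr19:39421404-39421583, plus strand): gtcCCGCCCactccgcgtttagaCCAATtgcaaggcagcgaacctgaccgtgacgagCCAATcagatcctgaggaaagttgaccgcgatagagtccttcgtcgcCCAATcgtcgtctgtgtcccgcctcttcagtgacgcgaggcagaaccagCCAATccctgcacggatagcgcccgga
CRAT (chr9:131873073-131873228, minus strand): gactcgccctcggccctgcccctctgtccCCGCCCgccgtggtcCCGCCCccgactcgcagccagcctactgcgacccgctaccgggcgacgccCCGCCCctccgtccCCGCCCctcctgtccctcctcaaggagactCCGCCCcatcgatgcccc
NAIF1 (chr9:130829600-130829799, minus strand): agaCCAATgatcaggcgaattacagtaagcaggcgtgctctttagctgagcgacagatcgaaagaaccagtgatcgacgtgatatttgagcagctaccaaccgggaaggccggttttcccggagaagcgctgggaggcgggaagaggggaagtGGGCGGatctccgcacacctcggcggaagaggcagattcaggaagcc
ORMDL3 (chr17:38083855-38083984, minus strand): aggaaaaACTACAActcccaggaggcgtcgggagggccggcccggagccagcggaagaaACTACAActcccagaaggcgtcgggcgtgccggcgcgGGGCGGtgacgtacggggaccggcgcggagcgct

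The stretch upstream of ALKBH7, a mitochondrial member of the AlkB family, held 4 matches to CCAAT, the box bound by NFY. The stretch between MRPS12, a protein of the small mitochondrial ribosomal subunit, and its divergent partner SARS2, the mitochondrial seryl-tRNA synthetase, held 4 matches to CCAAT and 1 to GGGCGG, the box bound by SP and KLF factors. Upstream of CRAT, carnitine acetyltransferase, 5 matches to GGGCGG were found. NAIF1, a nuclear protein linked to apoptosis, had 1 match to each of these boxes. ORMDL3, a regulator of sphingolipid synthesis, had 2 matches to ACTACAA, taken from the ZNF143 motif, and 1 to GGGCGG. The stretch upstream of MARCHF4, also read but not printed, held 0 matches to the searched motifs. The MARCHF4 promoter peaks scored 46 in i∆HSA and 24 in iBRG1. The starts of ALKBH7, MRPS12 and CRAT lay inside a peak of both lists, the start of NAIF1 only inside the iBRG1 peak, and the start of ORMDL3 inside neither. The GGGCGG match printed for NAIF1 lay outside the i∆HSA peak there, chr9:130829658-130830353. The i∆HSA peak at ORMDL3, chr17:38084382-38087878, lay wholly outside the printed stretch. Its midpoint was 2145 bp from the nearest CpG-rich start, so the marked boxes there are not sequence under that peak.

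Promoter peaks were more frequent at CpG-rich than at CpG-poor genes in both lists. Of 19821 protein-coding genes, 12734 had at least 1 CpG-rich start and 7087 had none. In the iBRG1 list, 2067 CpG-rich genes (16.2%, 95% interval 15.6 to 16.9) had a promoter peak, against 513 CpG-poor genes (7.24%, 6.66 to 7.87). The odds ratio was 2.48 (2.24 to 2.75, two-sided Fisher's exact test, adjusted p = 2.16e-77). For i∆HSA, 2452 CpG-rich genes (19.3%, 18.6 to 20.0) and 675 CpG-poor genes (9.52%, 8.86 to 10.2) had one, with an odds ratio of 2.27 (2.07 to 2.48, exact test, adjusted p = 2.51e-76). With stricter limits of 60% GC and a CpG ratio of 0.75, the odds ratios were 1.502 for iBRG1 and 1.216 for i∆HSA. Neighbouring genes can share a peak, and both peaks and genes are counted within 1 list per construct. Each test therefore describes these lists and not the spread between cultures, and p-values were adjusted over 15 tests.

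More CpG-rich genes carried a promoter peak in the i∆HSA list than in the iBRG1 list. A promoter peak in both lists, not always at the same start, was found at 802 of the 12734 genes (6.3%), or 38.8% of those with an iBRG1 peak and 32.7% of those with an i∆HSA peak, while 9017 genes had a peak in neither. There were 1650 genes with an i∆HSA peak only and 1265 with an iBRG1 peak only, a ratio of 1.30 (1.21 to 1.41, two-sided exact binomial test, adjusted p = 1.99e-12). The size of this excess moved with the score filter, and in both directions. Among peaks with a score of at least 5 the ratio was 2.453 (exact test, adjusted p = 1.44e-64). That cut kept 27.2% of the iBRG1 peaks and 41.1% of the i∆HSA peaks, and whether the lists share a score scale is not stated. Among peaks at or above the median score of their own list, the ratio was 1.003 (exact test, adjusted p = 0.967). Because of tied scores, this filter left 17286 iBRG1 and 13689 i∆HSA peaks. CpG-rich promoter peaks also took a larger share of the i∆HSA list than of the iBRG1 list, with an odds ratio of 1.19 (1.11 to 1.27, Fisher's exact test, adjusted p = 5.59e-07). Both directions were the same at CpG-poor promoters, where the lists were not tested against each other. Of 7087 CpG-poor genes, 675 (9.52%) had a promoter peak in i∆HSA and 513 (7.24%) in iBRG1. CpG-poor promoter peaks made up 4.04% of the i∆HSA list and 3.80% of the iBRG1 list.

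**Figure D1:**
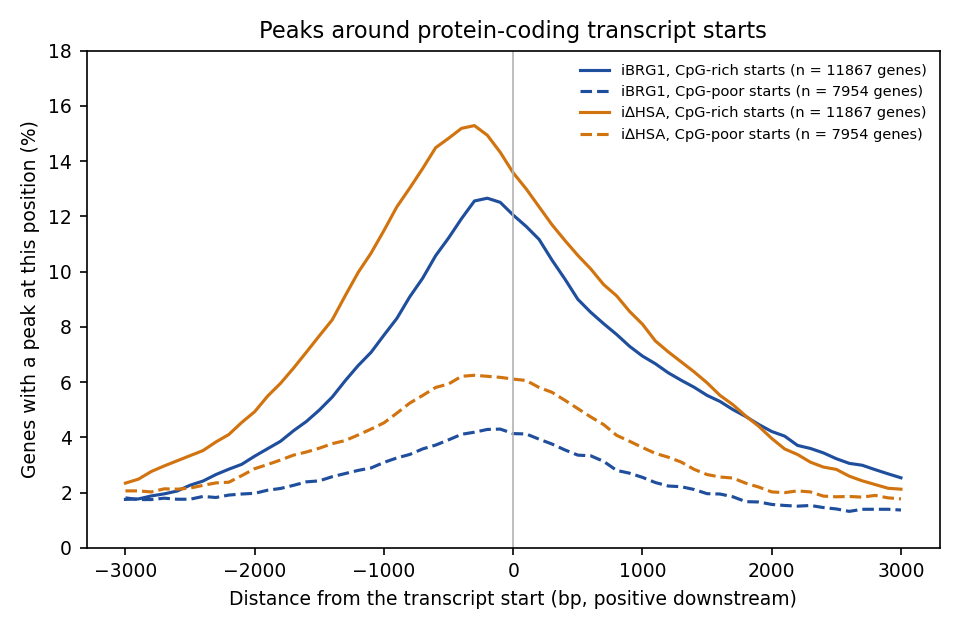
Share of genes (vertical axis, percent) with a peak at each distance from a transcript start (horizontal axis, bp), with 1 start per gene, for iBRG1 (blue) and i∆HSA (orange) at CpG-rich (solid) and CpG-poor (dashed) starts. The solid lines reach 12.7% for iBRG1 at 200 bp upstream and 15.3% for i∆HSA at 300 bp upstream, and the i∆HSA line is the more lopsided of the pair.

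The peaks crowded around the start itself. With 1 start taken per gene, 12.7% of 11867 CpG-rich starts had iBRG1 signal at 200 bp upstream, where the share was highest, and this was 5.90-fold the mean share at 3000 bp to either side (2.15%). For i∆HSA the highest share was 15.3% at 300 bp upstream, 6.85-fold the share at 3000 bp (2.23%). CpG-poor starts rose less, to 4.3% for iBRG1 and 6.25% for i∆HSA, which were 2.70-fold and 3.26-fold their shares at 3000 bp. At 1000 bp upstream 11.5% of CpG-rich starts lay under an i∆HSA peak and at 1000 bp downstream 8.10%, whereas the corresponding shares for iBRG1 were 7.70% and 6.94%.

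The i∆HSA peaks lay further upstream. The midpoint of the median iBRG1 peak was 18.5 bp downstream of the nearest CpG-rich start (quartiles -412.5 and 511), and that of the median i∆HSA peak was 101 bp upstream of it (quartiles -609 and 352). Midpoints upstream of the start made up 47.4% (45.1 to 49.8) of the iBRG1 peaks and 57.4% (55.3 to 59.5) of the i∆HSA peaks, an odds ratio of 1.49 (1.31 to 1.69, Fisher's exact test, adjusted p = 6.65e-10). This comparison was chosen after the values were seen and was adjusted over 5 such tests. The largest gap between the lists was in the bin from 1000 to 500 bp upstream, with 17.9% of i∆HSA midpoints and 13.0% of iBRG1 midpoints. A CpG-rich start was covered by 79.6% (77.6 to 81.4) of the iBRG1 peaks and 76.1% (74.2 to 77.8) of the i∆HSA peaks, an odds ratio of 0.818 (0.702 to 0.953, exact test, adjusted p = 0.00975), and this difference did not pass among peaks with a score of at least 5 (78.7% for i∆HSA and 80.3% for iBRG1, adjusted p = 0.566). Shared peaks covered a start more often than list-only peaks, at 84.3% against 76.7% for iBRG1 (exact test, adjusted p = 0.000171) and 81.7% against 73.5% for i∆HSA (adjusted p = 4.71e-05). With a score of at least 5 neither of the latter differences passed (exact test, adjusted p = 0.519 and 0.949).

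Peaks at CpG-rich promoters recurred between the constructs more often than the rest of each list. A peak was called shared if any base of it lay under a peak of the opposite construct. Of the iBRG1 peaks at CpG-rich promoters, 661 (37.6%, 35.4 to 39.9) were shared, against 19.2% (18.7 to 19.7) of all other iBRG1 peaks and 20.5% of the whole list. The odds ratio was 2.54 (2.30 to 2.82, Fisher's exact test, adjusted p = 1.23e-65). Of the i∆HSA peaks at CpG-rich promoters, 676 (31.4%, 29.5 to 33.4) were shared, against 18.5% (18.01 to 19) of the others and 19.6% of the whole list, with an odds ratio of 2.02 (1.83 to 2.22, exact test, adjusted p = 6.98e-42). In iBRG1 the odds ratio was 1.274 when only scores of at least 5 were kept in both lists (39.9% against 34.3%, exact test, adjusted p = 0.0108). The i∆HSA difference turned around when only scores of at least 5 were kept in both lists, with 20.5% of CpG-rich promoter peaks and 22.2% of the others shared (odds ratio 0.904, exact test, adjusted p = 0.292). Against CpG-poor promoter peaks the difference was smaller, 37.6% against 30.0% (27.2 to 33.1) for iBRG1 (odds ratio 1.41, exact test, adjusted p = 0.000108) and 31.4% against 25.4% (22.8 to 28.2) for i∆HSA (odds ratio 1.34, adjusted p = 0.000583), and it did not pass under several of the alternatives, such as a reciprocal overlap of 50% (adjusted p = 0.162 and 0.387).

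**Figure D2:**
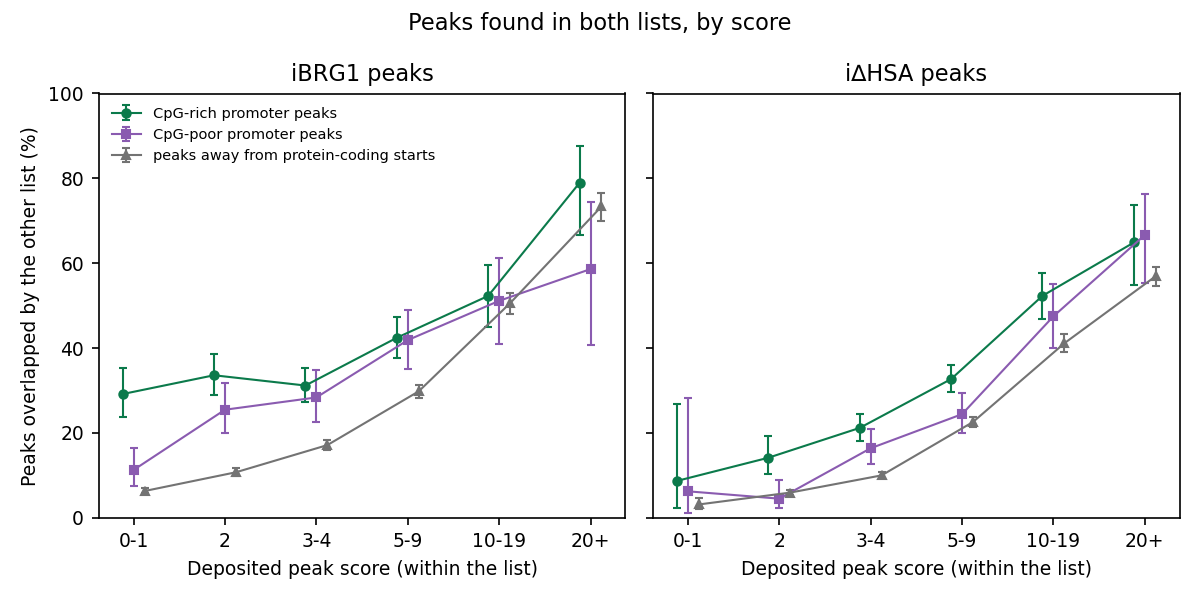
Share of peaks overlapped by a peak of the other list (vertical axis, percent) by deposited score within the list (horizontal axis), for CpG-rich promoter peaks (green), CpG-poor promoter peaks (purple) and peaks away from protein-coding starts (grey), with 95% Wilson intervals as bars. In iBRG1 the green points lie well above the grey ones at scores of 0 and 1, 29.2% against 6.32%, and near them at scores of 10 to 19, 52.3% against 50.6%, whereas in i∆HSA they lie above them at 10 to 19 as well, 52.3% against 41.1%.

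In iBRG1 the gap was widest among weak peaks. At a score of 2, 33.6% of iBRG1 peaks at CpG-rich promoters were shared (29.0 to 38.5), against 10.7% (9.90 to 11.6) of peaks away from any protein-coding start. At scores of 10 to 19 these shares were 52.3% (44.9 to 59.6) and 50.6% (48.1 to 53.02). In the i∆HSA list the shares were 14.2% (10.3 to 19.2) and 5.95% (5.35 to 6.61) at a score of 2 and 52.3% (46.9 to 57.7) and 41.1% (39.01 to 43.3) at 10 to 19, so that the gap in percentage points was not narrower at the higher scores. Width went along with class. The median CpG-rich promoter peak was 2072 bp wide in iBRG1 and 2246 bp in i∆HSA, against 1250 and 1224 bp for peaks away from protein-coding starts. Among peaks of 1000 to 2000 bp, 42.0% (37.9 to 46.3) of the iBRG1 peaks at CpG-rich promoters were shared against 22.9% (21.9 to 23.9) away from starts, and for i∆HSA 29.3% (25.9 to 33.1) against 21.3% (20.4 to 22.3). Above 3000 bp the intervals overlapped in both lists, at 35.2% (30.9 to 39.7) and 32.5% (30.5 to 34.6) in iBRG1 and 37.6% (33.8 to 41.6) and 33.3% (31.2 to 35.4) in i∆HSA, where they also did so from 2000 to 3000 bp, at 33.6% (30.2 to 37.2) and 31.9% (30.4 to 33.4). The part of width in the result was not tested beyond these values.

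CpG-rich promoter peaks more often reached a score of 5, the minimum that the study's methods name. The score is the deposited value per peak, and its scale is not stated. The tests of score given here were made within a list. The filter at 5 used elsewhere applied the same cut to both lists, whose scales may differ. In iBRG1, 634 CpG-rich promoter peaks (36.1%, 33.9 to 38.4) reached it against 26.5% of the other peaks and 27.2% of the whole list (odds ratio 1.57, 1.42 to 1.74, Fisher's exact test, adjusted p = 3.25e-17). In i∆HSA, 1261 (58.5%, 56.5 to 60.6) reached it against 39.5% of the others and 41.1% of the whole list (odds ratio 2.16, 1.97 to 2.36, exact test, adjusted p = 4.12e-64). At a threshold of 10 the differences were smaller, 13.2% against 10.8% in iBRG1 (odds ratio 1.249, exact test, adjusted p = 0.00385) and 19.4% against 17.5% in i∆HSA (odds ratio 1.131, adjusted p = 0.0334). CpG-poor promoter peaks also reached 5 more often than the whole lists, 33.5% (30.5 to 36.6) in iBRG1 and 52.9% (49.9 to 55.97) in i∆HSA. Scores of 20 or more were held by 94 of 2154 CpG-rich and 75 of 1024 CpG-poor promoter peaks in i∆HSA. In iBRG1 they were held by 57 of 1756 and 29 of 919. The 2 promoter classes were not tested against each other on score. The extremes lay elsewhere, since the strongest CpG-rich promoter peak ranked 27th by score in the iBRG1 list and 322nd in the i∆HSA list. Where CpG-rich promoter peaks of both lists overlapped (643 pairs), the median score was 4 in iBRG1 and 7 in i∆HSA, and the midpoints were a median of 471 bp apart. These median scores were not tested against each other, since the lists may not share a scale.

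The strongest iBRG1 peaks were narrow and centred on starts. The highest belonged to TIAL1, an RNA-binding protein of the TIA family, at chr10:121355228-121356741 with a score of 57 and no i∆HSA peak over it. ZBTB3, a BTB zinc finger protein, followed at chr11:62521353-62521841 with a score of 52, and its i∆HSA peak scored 40. The peak between CRAT and PTPA, an activator of protein phosphatase 2A, scored 51 in iBRG1 and 4 in i∆HSA, with its midpoint 2 bp upstream of a start. ALKBH7, whose upstream stretch with 4 CCAAT boxes is printed above, scored 48 and 10. The peak between MRPS12 and SARS2, printed above as well, scored 45 and 13 at chr19:39420863-39421975. Of the 10 highest iBRG1 peaks, 9 covered a CpG-rich start, 8 were shared, and their GC content ran from 50.4% to 69.3% (median 63.1%).

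Fewer of the strongest i∆HSA peaks covered a CpG-rich start. The highest, at ECT2, a gene of cell division, scored 70 at chr3:172465977-172468488 and covered a start, with its midpoint 1239 bp upstream of it, and the iBRG1 peak there scored 26. RTN4, which encodes the reticulon Nogo, scored 68 in i∆HSA and 10 in iBRG1. The shared promoter of NAIF1 and SLC25A25, a mitochondrial carrier, scored 63 in i∆HSA and 44 in iBRG1, and was among the 10 highest of both lists. The peak near the imprinted pair PEG10 and SGCE scored 51 and 6, and that of ADGRG6, an adhesion G protein-coupled receptor, 45 and 18. Of the 10 highest i∆HSA peaks, 4 covered a CpG-rich start, 8 were shared, and their GC content ran from 34% to 54.2% (median 44.03%). Over all CpG-rich promoter peaks the median GC content was 53.9% in iBRG1 and 52.6% in i∆HSA.

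Most peaks served 1 gene. In iBRG1, 1447 of the 1756 peaks met the CpG-rich starts of 1 protein-coding gene, 293 of 2 genes, 14 of 3 and 2 of 4, and in i∆HSA the numbers were 1844, 295, 14 and 1. The iBRG1 peak at chr14:104028669-104030040 met the starts of BAG5, a co-chaperone, of KLC1, a kinesin light chain, of COA8, a cytochrome oxidase assembly factor, and of a gene without a symbol, scored 28 and had no i∆HSA counterpart. On chromosome 19 a peak at RFXANK, a subunit of the RFX complex of MHC class II genes, and its neighbours BORCS8 and MEF2B scored 10 in both lists.

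Divergent starts carried peaks more often than single starts, and more so in iBRG1. A CpG-rich start was counted as divergent when a protein-coding or lncRNA gene started on the opposite strand within 1000 bp upstream. In iBRG1, 955 of 4440 divergent genes (21.5%, 20.3 to 22.7) and 1112 of 8294 single genes (13.4%, 12.7 to 14.2) had a promoter peak (odds ratio 1.77, 1.61 to 1.95, Fisher's exact test, adjusted p = 7.78e-31). In i∆HSA the shares were 21.4% (20.2 to 22.6) and 18.1% (17.3 to 18.98), with an odds ratio of 1.23 (1.12 to 1.34, exact test, adjusted p = 1.92e-05). The difference between the lists was tested on the genes with a peak in 1 list only, a comparison chosen after the values were seen. Divergent starts made up 46.8% (44.1 to 49.5) of the 1265 iBRG1-only genes and 35.5% (33.2 to 37.8) of the 1650 i∆HSA-only genes (odds ratio 1.60, 1.38 to 1.86, Fisher's exact test, adjusted p = 6.65e-10). Divergent genes also had a median of 3 CpG-rich starts against 2 for single genes, and the part of this in the result was not tested. Partners of a divergent pair, such as MRPS12 and SARS2, can share 1 peak but were counted as separate genes. The intervals and p-values of these comparisons do not allow for that.

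**Figure D3:**
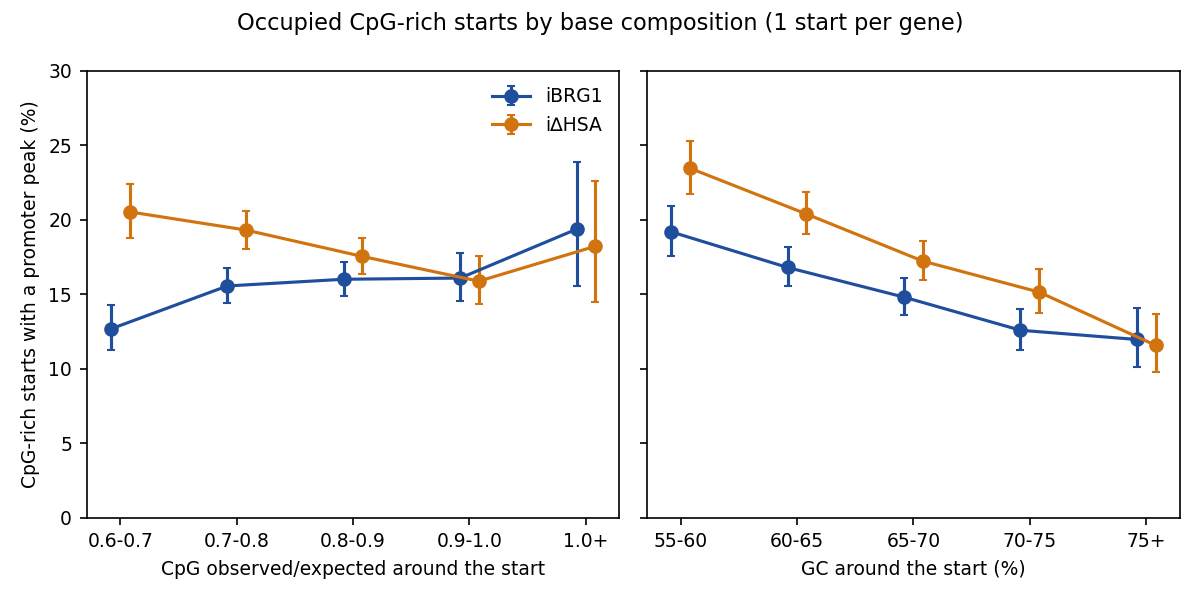
Share of CpG-rich starts with a promoter peak (vertical axis, percent, 1 start per gene) by CpG observed/expected ratio (left) and GC content (right) of the 500 bp on either side of the start, for iBRG1 (blue) and i∆HSA (orange), with 95% Wilson intervals as bars. The lists differ most at ratios of 0.6 to 0.7, 12.7% against 20.5%, and both fall with GC content to about 12% above 75% GC.

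Within CpG-rich promoters the lists differed along the CpG ratio. At ratios of 0.6 to 0.7, 12.7% (11.2 to 14.2) of starts had an iBRG1 peak and 20.5% (18.8 to 22.4) an i∆HSA peak. At ratios of 0.9 to 1 the shares were 16.1% (14.5 to 17.8) and 15.9% (14.3 to 17.6), and above 1, with 346 starts, 19.4% (15.6 to 23.9) and 18.2% (14.5 to 22.6). The i∆HSA share was thus lower at 0.9 to 1 than in the first bin, but its interval above 1 held the share of the first bin. Among genes with a peak in 1 list only, a ratio of at least 0.8 at some CpG-rich start was held by 66.3% (63.7 to 68.9) of the iBRG1-only genes and 54.2% (51.8 to 56.6) of the i∆HSA-only genes (odds ratio 1.67, 1.43 to 1.94, Fisher's exact test, adjusted p = 5.63e-11, chosen after the values were seen). The iBRG1-only genes had a median of 3 CpG-rich starts against 2, and so more starts that could reach 0.8. With 1 start per gene the odds ratio was 1.507 (Fisher's exact test, adjusted p = 2.75e-07). Along GC content both lists fell, from 19.2% at 55 to 60% GC to 12.0% above 75% GC in iBRG1 and from 23.4% to 11.6% in i∆HSA. Libraries were amplified by PCR, which can disfavour very GC-rich fragments, and its part here was not tested.

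The limits that define a CpG-rich start did not mark a step in GC content. Among starts with a CpG ratio of at least 0.6, those just outside the GC limit (53 to 55%) had an iBRG1 peak in 16.7% and an i∆HSA peak in 25.5% of 514 cases, and those just inside (55 to 57%) in 18.9% and 25.4% of 724 cases. Among starts with at least 55% GC, ratios of 0.55 to 0.6 gave 9.55% and 12.3% of 471 starts, and ratios of 0.6 to 0.65 gave 12.2% and 18.2% of 694 starts.

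**Figure D4:**
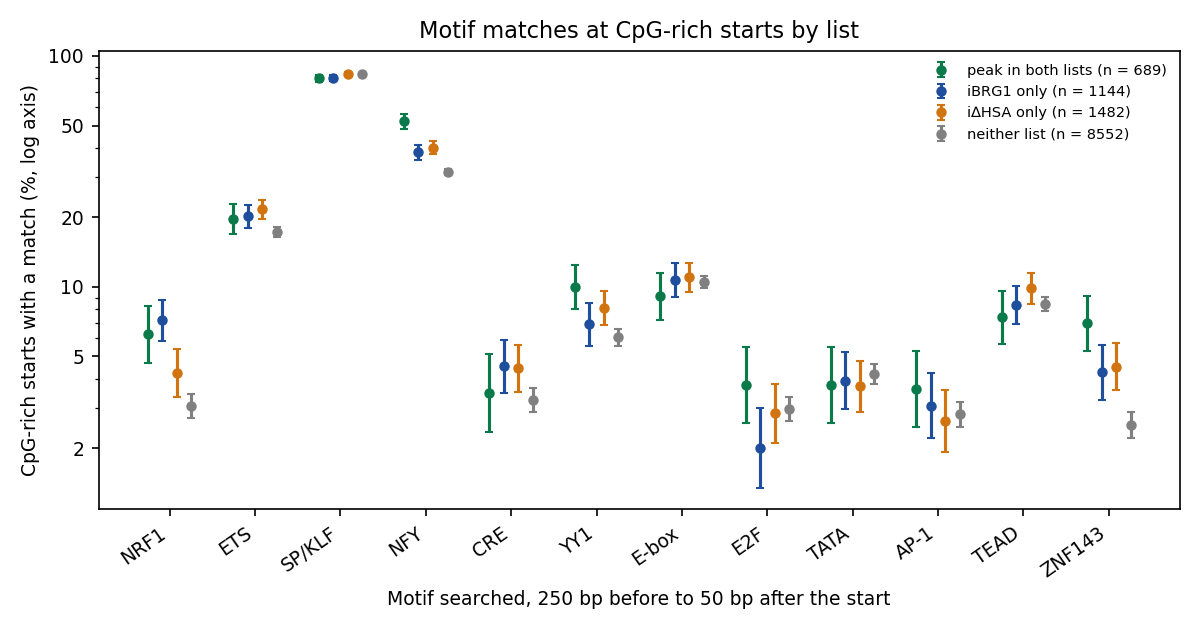
Share of CpG-rich starts (vertical axis, percent, log scale) with a match to each of 12 motifs (horizontal axis) in the 250 bp before to 50 bp after the start, for starts with a peak in both lists (green), iBRG1 only (blue), i∆HSA only (orange) and neither (grey), with 95% Wilson intervals as bars. The NFY box stands at 52.1% in both lists and 31.4% in neither, while SP/KLF matches lie between 80.1% and 83.8% in every class.

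The CCAAT box was the motif whose share differed most, in percentage points, with the presence of peaks. Both strands were searched, from 250 bp before to 50 bp after 1 start of each gene, and no pattern contained another. CCAAT was present at 52.1% (48.4 to 55.8) of 689 CpG-rich starts with a peak in both lists, 38.3% (35.5 to 41.1) of 1144 with an iBRG1 peak only, 40.1% (37.7 to 42.7) of 1482 with an i∆HSA peak only and 31.4% (30.5 to 32.4) of 8552 with neither. Over all 19821 protein-coding starts it was present at 35.9%. The ALKBH7 and MRPS12 sequences printed above, each with 4 such boxes, are examples from the first class that were chosen for these boxes. Relative to the share in neither list, the rarer ZNF143 and NRF1 boxes differed more, as given next. At 7954 CpG-poor starts, which carried peaks less often, CCAAT was present at 38.3% (37.2 to 39.3). At their most GC-rich CpG-rich start, genes with peaks in both lists had a median GC content of 65.2%, against 67.1% in neither. These shares are descriptions without a test, and the part of base composition was not tested.

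The other searched motifs did not all follow the order of the CCAAT box. ACTACAA of the ZNF143 motif was found at 6.97% (5.29 to 9.12) of starts in both lists and 2.53% (2.21 to 2.88) in neither, against 2.97% of all protein-coding starts. GCGCATGCG, bound by NRF1, a regulator of nuclear genes for mitochondria, was found at 6.24% of starts in both lists, 7.17% (5.81 to 8.81) of iBRG1-only, 4.25% (3.34 to 5.40) of i∆HSA-only and 3.06% (2.72 to 3.45) of starts in neither, against 2.69% of all. AAGATGG of YY1 was at 10.0% in both lists, 6.06% in neither and 6.46% of all, and CCGGAAG of ETS factors at 19.7%, 17.3% and 13.96%. CCGGAAG was at 20.3% of iBRG1-only and 21.7% of i∆HSA-only starts, above its share in both lists. GGGCGG was nearly everywhere, at 80.1% in both lists and 83.2% in neither, against 61.2% of all protein-coding starts. TGANTCA, the AP-1 site, was at 3.63% of starts in both lists, 2.82% in neither and 5.43% of all, and GGAATG of TEAD factors at 7.40%, 8.45% and 11.3%. TATAAA was present at 3.77% of starts in both lists, 4.198% in neither and 9.72% of all. The remaining patterns, TGACGTCA (CRE), CACGTG (E-box) and TTTCCCGC (E2F), were at 3.48%, 9.14% and 3.77% of starts in both lists and 3.24%, 10.5% and 2.96% of starts in neither, against 2.72%, 8.72% and 2.22% of all. TGACGTCA was at 4.545% of iBRG1-only and 4.453% of i∆HSA-only starts, also above its share in both lists.

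**Figure D5:**
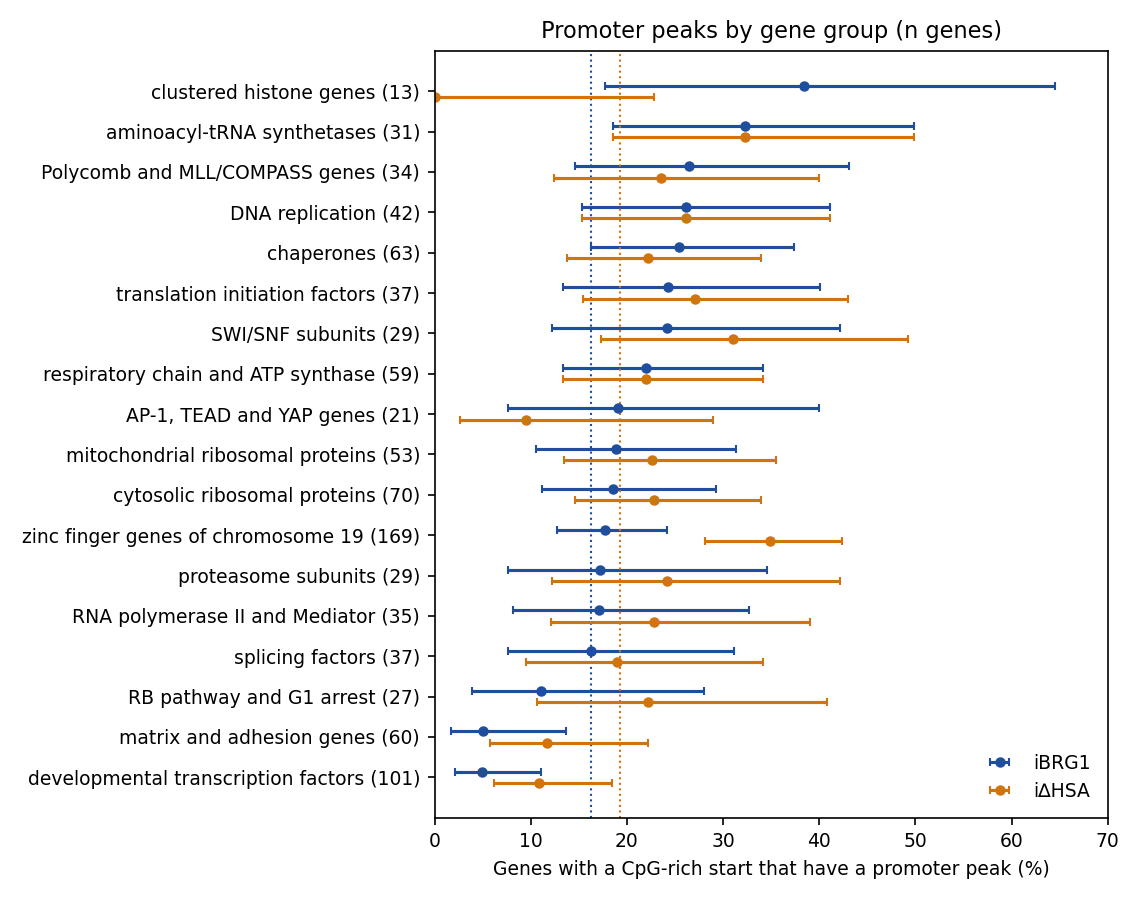
Share of genes with a CpG-rich start that have a promoter peak (horizontal axis, percent) in 18 gene groups (vertical axis, number of CpG-rich genes in brackets), for iBRG1 (blue) and i∆HSA (orange), with 95% Wilson intervals as bars and dotted lines at the shares of all CpG-rich genes, 16.2% and 19.3%. Most intervals cross the dotted lines, developmental transcription factors lie below both, and zinc finger genes of chromosome 19 lie above the i∆HSA line only. The iBRG1 intervals of aminoacyl-tRNA synthetases, clustered histone genes and, barely, chaperones lie above the iBRG1 line. That of matrix and adhesion genes lies below the iBRG1 line.

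Gene groups are given below by counts, to be read against the shares of all CpG-rich genes, 16.2% in iBRG1, 19.3% in i∆HSA and 6.3% in both lists. They were given no test, and most of their intervals held those shares. Genes of translation come first. Of 70 cytosolic ribosomal protein genes, 13 had an iBRG1 peak, 16 an i∆HSA peak and 4 both. These 4 were RPS19 (scores 5 in iBRG1 and 12 in i∆HSA), RPS16 (6 and 4), RPL36 (11 and 2) and RPL28 (2 and 4), all on chromosome 19, and the RPL36 peaks lay at different starts. Of 53 mitochondrial ribosomal protein genes, 10, 12 and 5 had them. Aminoacyl-tRNA synthetases, which charge tRNAs with amino acids, had the highest share in both lists together. Of their 31 genes, 10 had an iBRG1 peak (32.3%, 18.6 to 49.9), 10 an i∆HSA peak and 5 both (16.1%), among them SARS2 (45 and 13), PARS2 (7 and 9) and AARS1 (3 and 8). Of 37 translation initiation factor genes, 9, 10 and 2 had peaks, the shared ones being EIF1 (3 and 6) and EIF3D (2 and 11).

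Next are genes of protein folding, turnover and energy supply. Of 63 chaperone genes, 16 had an iBRG1 peak, 14 an i∆HSA peak and 8 both, with CCT3 (6 and 9) and CCT2 (3 and 21), subunits of the chaperonin that folds actin and tubulin, and DNAJA3 (8 and 5), a mitochondrial co-chaperone. Of 59 genes of the respiratory chain and ATP synthase, 13 had a peak in each list and 6 in both. NDUFB11, a complex I subunit encoded on the X chromosome, led them with scores of 25 and 8, followed by NDUFA6 (9 and 8) and NDUFB2 (8 and 7). Of 29 proteasome genes, 5, 7 and 1 had peaks, the last being PSMD9 (3 and 4).

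A further set serves DNA replication, RNA synthesis and processing, and the cell cycle. Of 42 DNA replication genes, 11 had a peak in each list and 6 (14.3%) in both. PCNA, the sliding clamp, scored 5 in iBRG1 and 13 in i∆HSA, MCM7, a subunit of the replicative helicase, 18 and 3, and RPA2, which binds single-stranded DNA, 5 and 10. Of 37 splicing factor genes, 6, 7 and 1 had peaks, and SRSF6, a serine/arginine-rich splicing factor, had a score of 29 in iBRG1 and no i∆HSA peak. Of 35 genes of RNA polymerase II and Mediator, 6, 8 and 3 had peaks, with MED16 (8 and 12) and MED11 (21 and 3) in both. Of 27 genes of the RB pathway and G1 arrest, 3 had an iBRG1 peak, 6 an i∆HSA peak and 2 both, E2F3 (4 and 9) and CCND3 (2 and 6), the latter at different starts. CDK6, a G1 kinase, and CDKN2C, its inhibitor p18, had only i∆HSA peaks, with scores of 14 and 11.

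Chromatin genes included the complex's own subunits. Of 29 SWI/SNF genes, all of which had a CpG-rich start, 7 had an iBRG1 peak, 9 an i∆HSA peak and 4 both. The 4 were ARID1B (5 and 6), SMARCC2 (2 and 4), SMARCD2 (2 and 4) and SMARCD3 (3 and 4), and the SMARCD3 peaks lay at different starts. ACTL6A, the actin-related subunit BAF53A that binds the HSA domain, had an i∆HSA score of 21 at chr3:179278319-179281407 and no iBRG1 peak. BCL7C had an i∆HSA peak with a score of 5, and BCL7A and BCL7B had none in either list. SMARCA4, which encodes BRG1, and SMARCA2, which encodes BRM, had no promoter peak in either list. Of 34 Polycomb and MLL/COMPASS genes, 9, 8 and 4 had peaks, with SETD1B (5 and 10) and PCGF1 (20 and 4) in both.

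Developmental transcription factors, such as GATA, HOX and TBX genes, often have CpG-rich starts. Of 101 such genes with a CpG-rich start, 5 had an iBRG1 peak (4.95%, 2.13 to 11.1), 11 an i∆HSA peak (10.9%, 6.19 to 18.5) and 0 both, beside 16.2% and 19.3% of all CpG-rich genes. The highest score was that of GATA3, 15 in i∆HSA. Of 60 matrix and adhesion genes, 3 had an iBRG1 peak (5%, 1.71 to 13.7), 7 an i∆HSA peak (11.7%, 5.77 to 22.2) and 1 both, THBS1, which encodes thrombospondin 1 (2 and 7). Of 21 AP-1, TEAD and YAP genes, 4, 2 and 2 had peaks, and JUNB (4 and 6) and TEAD2 (2 and 7) had both. Of 13 histone genes of the replication-dependent clusters, 5 had an iBRG1 peak, with scores of 9 and 10 at those named by the rule. Among these, H2AC19 and H3C15 share a peak, and H2AC25 and H2BC26 share another, so that the genes counted outnumber the peaks. An i∆HSA peak was found at 0 of the 13 genes, which allows a share of up to 22.8% by its interval.

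Of 9 genes that the study followed by expression, 3 had a CpG-rich start. CSF1, a macrophage growth factor, CD44, a hyaluronan receptor, and CDKN1A, which encodes p21, were these, and none of the 3 had a promoter peak there in either list. SRPX2, MYOF, CRYAB, SPARC, SNCG and ITIH3 had no CpG-rich start and fell outside the rule.

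Chromosome 19 was the most occupied chromosome in both lists. Of its 896 CpG-rich genes, 249 (27.8%, 25.0 to 30.8) had an iBRG1 peak against 15.4% (14.7 to 16.0) on the other chromosomes (odds ratio 2.12, 1.82 to 2.47, Fisher's exact test, adjusted p = 2.63e-19), and 317 (35.4%, 32.3 to 38.6) an i∆HSA peak against 18.04% (17.3 to 18.7) (odds ratio 2.49, 2.15 to 2.88, adjusted p = 1.73e-31). Both comparisons were chosen after the values were seen. A peak in both lists was found at 154 of these genes (17.2%).

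The zinc finger genes of chromosome 19, mostly repressors with a KRAB domain, parted the lists. Of 169 ZNF genes with a CpG-rich start there, 30 (17.8%, 12.7 to 24.2) had an iBRG1 peak, 59 (34.9%, 28.1 to 42.4) an i∆HSA peak and 17 both. Of the 727 other CpG-rich genes of the chromosome, 219 (30.1%) had an iBRG1 peak, 258 (35.5%) an i∆HSA peak and 137 (18.8%) both. ZNF302 scored 27 in iBRG1 and 11 in i∆HSA, and the divergent pair ZNF146 and ZNF565 shared a peak of scores 23 and 8. Of 204 ZNF genes on other chromosomes, 43 (21.1%) and 46 (22.5%) had peaks. These counts are descriptions without a test.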

How the data were processed

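CUT&RUN was performed by the authors with an antibody against V5. Per the study's methods and the submitters' processing notes, reads were trimmed with cutadapt, aligned with Bowtie2, freed of duplicates with Picard and SAMtools and given to MACS2 2.2 for peak calling, and the notes name hg19. Peaks of negative controls were removed and a minimum score is named, but the deposited lists hold lower scores too. Peak names are numbered up to 340229 (iBRG1) and 286854 (i∆HSA), above the 24212 and 25371 peaks deposited. The deposited score is a whole number per peak whose scale is not stated, and the other columns used were the deposited start and end of each peak. The lists hold no reads and no replicate column, and whether replicates were pooled is not stated in the sources used here. The depth reached is unknown, so no floor or interval rests on it.

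From these lists, 0 peaks ended beyond a GRCh37 chromosome. Starts came from GENCODE release 44 mapped to GRCh37, with positions counted from 1, and base composition from the same genome. Shares of peaks or genes were set against each other by Fisher's exact test (two-sided) and, for genes of 1 list only, a two-sided exact binomial test. P-values were adjusted by the Benjamini-Hochberg method over 15 tests, and over 5 more that were chosen after the values were seen. Intervals are 95% Wilson intervals for shares and 95% intervals for odds ratios, and cover counting error only. The median score of a list, a score of at least 5, the overlap rule, the promoter window, the CpG limits, the choice of starts, low-GC peaks and chromosomes were varied, as the closing section gives. Scripts were tested on simulated data. The tools were matplotlib 3.10.9, pysam 0.24.0, pandas 2.3.3, scipy 1.17.1 and numpy 2.4.6 in Python 3.11.15.

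Genes were named by rule: those of the 10 highest-scoring CpG-rich promoter peaks of each list, the study's followed genes and SWI/SNF subunit genes, up to 4 genes per gene group ordered by score with those in both lists first, and the 5 peaks meeting most genes. Of these, the text gives a part. The members and lists were chosen with earlier results of these data known.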

Additional observations from a re-analysis of the deposited data

Results flagged for a closer look

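The association of divergent starts with promoter peaks differed between the peak lists. Divergent genes had a peak in 21.5% (iBRG1) and 21.4% (i∆HSA) of cases, and single genes in 13.4% and 18.1%. The lists thus differed mainly at single starts. Divergent starts were enriched among genes with an iBRG1 peak only relative to genes with an i∆HSA peak only, with an odds ratio of 1.60 by Fisher's exact test of that difference. The CpG ratio differed in the same way, since a ratio of at least 0.8 was more frequent among iBRG1-only genes, with an odds ratio of 1.67. Both comparisons were chosen after the values were seen and rest on 1 peak list per construct. Partners of a divergent pair can share 1 peak but were counted as separate genes. The iBRG1-only genes had a median of 3 CpG-rich starts against 2 for i∆HSA-only genes, and the part of this was not tested.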

How the results depend on the processing

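Of 254 values recomputed for 20 results under 12 other settings and 1 chosen after seeing the data (leaving out chromosome 19), 232 kept their direction and their side of an adjusted p of 0.05, 19 kept only the direction and 3 turned around. The comparisons of CpG-rich with CpG-poor genes, of divergent with single starts, of scores, of chromosome 19 with the others and of midpoints kept both under every setting run on them, though CpG-rich against CpG-poor genes moved to 1.502 (iBRG1) and 1.216 (i∆HSA) with limits of 60% GC and a ratio of 0.75, and scores to 1.249 and 1.131 at a threshold of 10. The sharing of CpG-rich against CpG-poor promoter peaks held least. Its odds ratio for iBRG1 was 1.069 at scores of at least 5, 1.18 at or above the list median, 1.166 with a reciprocal overlap of 50%, 1.171 with midpoints within 500 bp, 0.979 with limits of 60% GC and a ratio of 0.75, and 1.06 with 1 start per gene. For i∆HSA the first 5 of these settings gave 0.988, 1.076, 1.096, 1.075 and 1.15, and leaving out chromosome 19 gave 1.18. The sharing of CpG-rich promoter peaks against all others was 1.274 (iBRG1) and 0.904 (i∆HSA) at scores of at least 5. Covered starts, shared against list-only, were 1.228 (iBRG1) and 1.031 (i∆HSA) at scores of at least 5, 1.281 (i∆HSA) at or above the median, and for iBRG1 1.273 with a window of 500 bp and 1.427 with the midpoint in the window. Covered starts, i∆HSA against iBRG1, were 0.906, 0.897 and 0.879 at scores of at least 5, at or above the median and with the midpoint in the window. The ratio of genes of 1 list only was 1.003 at or above the median, where ties left unequal parts of the lists. It was 2.453 at scores of at least 5, a cut that also kept unequal parts of the lists. Fewer peaks enter under the score filters, and otherwise the cause was not tested. No paired analysis was possible because the deposited columns carry no replicate, with 1 list for each construct, and no replicate could be left out.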

Other observations

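The share of occupied genes went along with the number of CpG-rich starts per gene. Among 3777 genes with 1 such start, 12.9% had an iBRG1 peak and 17.3% an i∆HSA peak, and among 728 genes with 8 or more, 23.8% and 23.2%. A gene with more starts offers more sequence for a peak to meet, so these values describe counts and not a level per promoter.

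On chromosome 18, 31 of 206 CpG-rich genes (15.05%) had an iBRG1 peak and 14 (6.80%) an i∆HSA peak, while on chromosome 13, 22 of 243 (9.05%) and 41 (16.9%) had one, the other way round. Over all CpG-rich genes the shares were 16.2% in iBRG1 and 19.3% in i∆HSA. The iBRG1 share on chromosome 18 and the i∆HSA share on chromosome 13 were thus near those of all CpG-rich genes. These chromosomes were picked out after their values were seen, and the differences were not tested.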
